A study of Mus musculus with 22 samples.

Results

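Of 22 mouse hearts measured on microarrays, 3 gave almost no signal for Sln, Myl4 and Myl7, transcripts that mark atrial muscle, while the other 19 held them. The 3 arrays were chosen from these measured values. They came from control day 1 replicate 2, nano-TiO2 day 1 replicate 1 and nano-TiO2 day 28 replicate 1, and are called the atrial-poor arrays here. Each array held the heart RNA of a single mouse, labelled with Cy5, beside a universal mouse reference RNA (a mix from mouse cell lines) labelled with Cy3. Values are log2 ratios of heart to reference unless a sentence says intensity. All mice were female C57BL/6, bought at 5 to 7 weeks of age. Each had received 1 instillation into the trachea, of 162 µg of nano-sized titanium dioxide (nano-TiO2) in the treated groups or of plain vehicle in the controls. The vehicle was salt water with 10% cell-free lung lavage fluid. The mice were killed after 1 or 28 days. They formed the groups control day 1 (5 mice, 1 of them atrial-poor), nano-TiO2 day 1 (5, 1 atrial-poor), control day 28 (6, none atrial-poor) and nano-TiO2 day 28 (6, 1 atrial-poor). Per the labels the hearts were cut into small pieces before freezing, and the labels do not say which piece was used.

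A mouse heart joins thin-walled atria, which receive blood, to thick-walled ventricles, which pump it. Atrial muscle cells use their own light chains of myosin, hold sarcolipin in place of much of the phospholamban that ventricular cells use to restrain the calcium pump, and store atrial natriuretic peptide in granules. The atria also adjoin the great vessels, the valves, the fat and the mesothelium-covered outer surface at the base of the heart, so a piece of heart may hold several of these together or none.

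The defining genes are given first as a description, with no test, because they chose the arrays. Sln encodes sarcolipin, the small inhibitor of the calcium pump in atrial muscle. It stood at 0.13, 0.24 and 0.22 on the atrial-poor arrays, in the order given above, against 3.45, 7.43 and 7.63 (lowest, median and highest) on the other 19. Sln was well above background on 0 of the 3 arrays and on 19 of 19 others. Its mean normalized log2 signal in Cy5 was 6.14 on the 3 arrays and 15.30 on the 19, and the Cy5 difference was -8.63 with the groups as covariates. For genes not well above background on any of the 3 arrays, such a Cy5 difference takes the signal there as the higher of the probe's own and the lowest signal called above background on that array.

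Myl4, the atrial essential light chain, stood at -0.39, -0.36 and -0.31 on the 3 arrays. On the other 19 it ranged from 1.11 through a median of 5.32 to 5.65. Myl7, the atrial regulatory light chain, stood at 2.02, 1.90 and 2.17, against 4.23, 7.49 and 8.09. For each of these genes the 3 arrays lay close together and below all others. Just outside the choice stood control day 1 replicate 4, with a mean of the 3 genes of 2.93, followed by control day 1 replicates 1 and 3 at 5.23 and 6.08. The means of the atrial-poor arrays were 0.58, 0.59 and 0.69, and those of the remaining 16 arrays reached at most 7.01. The separation was therefore not clean: 1 group, control day 1, filled the range between the extremes.

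**Figure D1:**
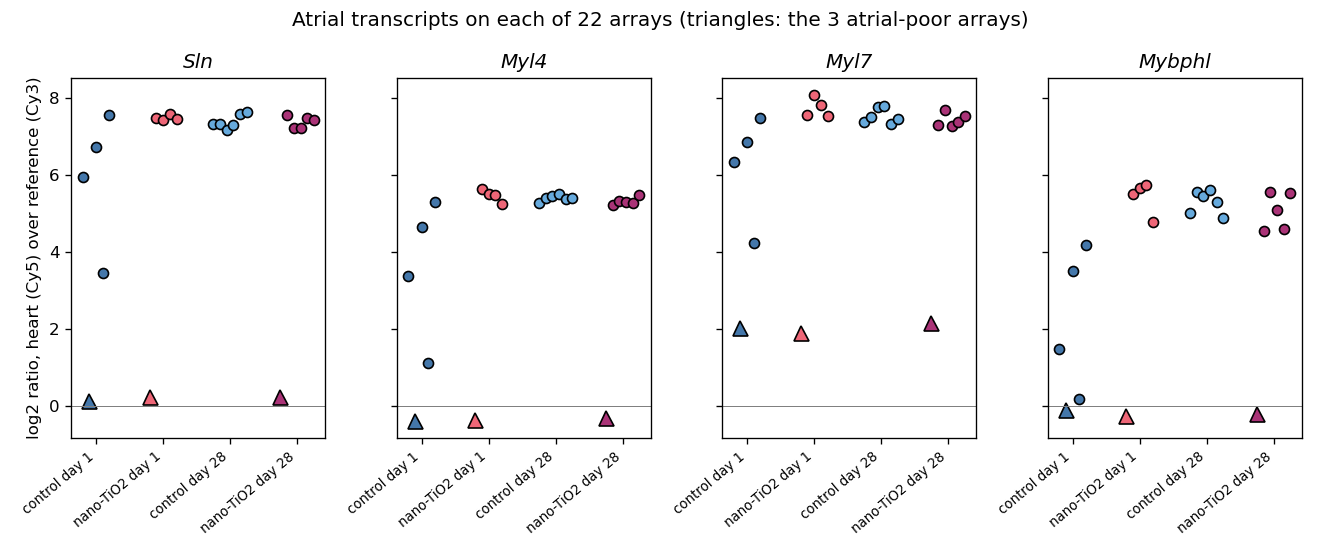
Log2 ratio of heart (Cy5) over reference (Cy3) of Sln, Myl4, Myl7 and Mybphl on each of 22 arrays, in 4 groups, with a triangle for each atrial-poor array and a circle for each other array. The triangles lie at the bottom of every panel, and 3 control day 1 circles lie between them and the rest.

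The promoter sequences of 3 of the genes that carry the split are shown, because these genes were low and high on the same arrays. Each is the run of 250 bases before the start of the RefSeq transcript on GRCm38.p6, printed along the direction of transcription, with a motif in capitals where a script found one. Myl7 (11:5896637-5898782 on the minus strand) is preceded by chr11:5898783-5899032. Myl4 (11:104546017-104587215) has its window at chr11:104550413-104550662, and Mybphl (3:108364911-108380057) at chr3:108364661-108364910. The window of Myl4 lies inside the span of the gene, so it precedes an internal transcript start and not the first base of the gene.
Myl7: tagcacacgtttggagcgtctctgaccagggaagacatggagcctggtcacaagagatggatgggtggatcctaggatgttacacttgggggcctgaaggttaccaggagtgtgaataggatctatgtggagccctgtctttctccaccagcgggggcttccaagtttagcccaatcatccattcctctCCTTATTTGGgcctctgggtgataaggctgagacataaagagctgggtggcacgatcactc
Myl4: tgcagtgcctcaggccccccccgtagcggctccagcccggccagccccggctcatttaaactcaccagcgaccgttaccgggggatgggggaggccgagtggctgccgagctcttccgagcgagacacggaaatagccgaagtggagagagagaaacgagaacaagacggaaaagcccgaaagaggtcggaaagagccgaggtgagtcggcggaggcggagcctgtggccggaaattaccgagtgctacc
Mybphl: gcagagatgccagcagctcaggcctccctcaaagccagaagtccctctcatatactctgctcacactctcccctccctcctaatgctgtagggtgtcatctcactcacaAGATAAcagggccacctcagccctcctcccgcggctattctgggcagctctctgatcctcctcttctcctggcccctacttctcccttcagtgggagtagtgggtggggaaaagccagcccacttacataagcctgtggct
The motifs searched on both strands were AGATAA (read by GATA factors), AGGTGTG (T-box factors), TNAAGTG (Nkx2-5) and, by name, the CArG box of serum response factor and the MEF2 site. Myl7 held a CArG box 61 to 52 bases before the start, and Mybphl held AGATAA 141 to 136 bases before it. The internal window of Myl4 held none of these motifs, and the bases before the first base of that gene were not searched. Among 32536 windows of this length a CArG box occurs in 1.48%, AGATAA in 9.97%, AGGTGTG in 5.12%, TNAAGTG in 10.0% and the MEF2 site in 0.513%. A match describes letters only.

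The atrial-poor arrays did not stand out in detection or in their correlation with the rest. From 32.7% to 52.8% of the probes of an array passed the scanner software's background test in Cy5, no spot was saturated, and the atrial-poor arrays lay within that range. Pairs of atrial-poor arrays correlated at r between 0.977 and 0.982 over all genes, pairs of an atrial-poor with another array at 0.890 to 0.985, and pairs of other arrays at 0.892 to 0.986. The arrays lay on 9 slides scanned on 3 days. All 3 atrial-poor arrays were scanned on 1 day, which held 8 arrays of all 4 groups, on slide 4 (1 of 2 arrays) and slide 5 (2 of 4). The extraction text of the labels names left lung although the tissue label is heart. Myl2, the ventricular regulatory light chain, stood between 5.59 and 6.49 on all 22 arrays. Lung epithelium or liver genes were highest in control day 28 replicates 1, 4 and 5, which are not atrial-poor. In such bulk RNA, fewer cells of a type and less RNA per cell cannot be told apart.

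The atrial-poor arrays were then set against the other 19, with the 4 groups as covariates. Since the choice of arrays rests on the same hybridisations, these differences are descriptive. Of 16396 genes, 30 (0.183%) passed the limma threshold of 0.05 after Benjamini-Hochberg adjustment, all of them lower in the atrial-poor arrays, and 26 of these have a symbol. The adjustment took in the 3 defining genes, which passed as well, so it can be too lenient. With scan day as a block 1 gene passed by limma (1089 at an unadjusted p under 0.05), and with slide as a fixed block 0 passed by limma (723 at an unadjusted p under 0.05). Unadjusted p was under 0.05 for 1840 genes, 741 higher and 1099 lower. All 3 atrial-poor arrays lay below all 19 others for 97 of 16197 genes with a value on every array (0.599%) and above them for 56 (0.346%). The fitted difference was below 0 for 49.2% of all genes tested, with a median of 0.00. Because the 3 arrays were chosen for low values, nothing is read from these shares.

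Atrial muscle genes that the choice did not use were low on the same arrays. Of 10 further atrial muscle genes listed, 8 were measured and all 8 were lower, with a median difference of -1.21 (3 passed the threshold). Of all genes, 49.2% were lower and 0.183% passed. The median was -0.84 with scan day or slide as a block and -0.61 with the adipocyte list mean as a covariate. Mybphl, a myosin-binding protein of atrial muscle, stood at -0.11, -0.27 and -0.22, against 0.19, 5.11 and 5.75 on the other 19. The 3 arrays lay below all others, as for 0.599% of all genes, and the difference was -4.49 ± 0.57 (SE, 3 against 19 arrays). Mybphl was well above background on 0 of the 3 and on 18 of the 19, and its Cy5 difference was -4.26. Taken without the groups as covariates, its difference was -4.62 within the scan day that holds all 3 arrays. It was -1.75 within slide 4 and -5.43 within slide 5, both scanned on that day. On each slide the atrial-poor arrays and the others came from different groups, so group and marker level are mixed in these values. The same holds for values within slides of other genes below.

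Fgf12, an intracellular protein that tunes sodium channels, stood at 0.16, -0.08 and 0.16, against -0.04, 3.40 and 4.40, a difference of -2.51 ± 0.47 (SE). Its other probe gave -0.49. Stard10, a lipid transfer protein, stood at 0.50, 0.78 and 0.82, against 0.78, 3.21 and 4.09, and differed by -1.88 ± 0.31 (SE). The ranges of both genes touched, because a few day 1 controls were as low as the atrial-poor arrays. Within slide 4, where the comparison array is control day 1 replicate 1, Stard10 differed by -0.01, while within slide 5 it differed by -2.52. Smaller differences belonged to Cpne5 (-1.52), Myl1 (-0.90), Nkain4 (-0.84), Fhl1 (-0.40) and Angpt1 (-0.19).

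Most genes of atrial secretion were lower. Of 10 listed genes 7 were measured and 6 were lower, with a median of -1.02. Dkk3, a secreted protein abundant in atrial cells, stood at 0.02, -0.33 and -0.16, against -0.10, 3.50 and 4.48. Its difference was -2.68 ± 0.52 (SE), and its Cy5 difference was -2.45, with signal well above background on 0 of the 3 arrays and 18 of the 19. Bmp10, an atrial growth factor, differed by -1.52 ± 0.50, and Hamp, which encodes the iron hormone hepcidin, by -1.38 ± 0.41 (SE). Both were well above background on 0 of the 3 and 15 of the 19 arrays, and of the 4 other day 1 controls on 0 for Bmp10 and 1 for Hamp. Their Cy5 differences were -1.23 and -1.43. Pam, the enzyme that amidates peptides in secretory granules and a major membrane protein of atrial granules, stood at 2.77, 2.48 and 2.60, against 2.46, 3.95 and 4.68. It overlapped the others at the low end and differed by -1.02 ± 0.26 (SE). Adm, the vasodilator adrenomedullin, differed by -0.44.

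Nppa, which encodes atrial natriuretic peptide, showed no such difference as a ratio, yet its intensity did. The ratio stood at 5.23, 5.11 and 4.98, against 4.69, 5.18 and 5.52, a difference of -0.07 ± 0.14 (SE). The unprocessed Cy5 intensity of Nppa was 13062, 12538 and 5555 on the atrial-poor arrays, against 2986, 94207 and 239700 on the others. Its Cy3 intensity, which stands for the reference RNA, was 917, 734 and 493, against 413, 8415 and 11492. Both channels of Nppa were thus low on the same arrays, and control day 1 replicate 4 held the lowest value in each. Fitted on single channels, the difference of Nppa was -2.73 in Cy5 alone and -2.72 in Cy3 alone, and these cancel in the ratio. The other Nppa probe gave a ratio difference of -0.70.

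The labels name the same reference RNA for the Cy3 channel of every array. Over 16399 genes the median Cy3 difference was 0.01, and 12 genes differed by more than 1 in size, all 12 of them lower on the atrial-poor arrays. Among these 12 were Myl7 (-3.14), Nppa (-2.72), Sln (-2.55) and Myl4 (-2.18), together with the red cell genes Hba-a1 (-1.43) and Alas2 (-1.01). The cause was not tested. For these genes the ratio understates the difference in Cy5, which with each channel normalized on its own was -8.00 for Sln, -7.53 for Myl7 and -6.84 for Myl4. In the same single-channel fit Mybphl differed by -3.90 and Dkk3 by -2.20 in Cy5. Most genes described below had a Cy3 difference near 0, such as Dkk3 (-0.06), Cnn1 (0.03), Lum (-0.04) and Myl2 (0.01). Exceptions among the genes examined were Gpx3 (-0.67), Cfd (-0.65), Nppb (-0.61) and Mybphl (-0.42). This look at Cy3 was added after the values of Nppa had been seen.

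**Figure D2:**
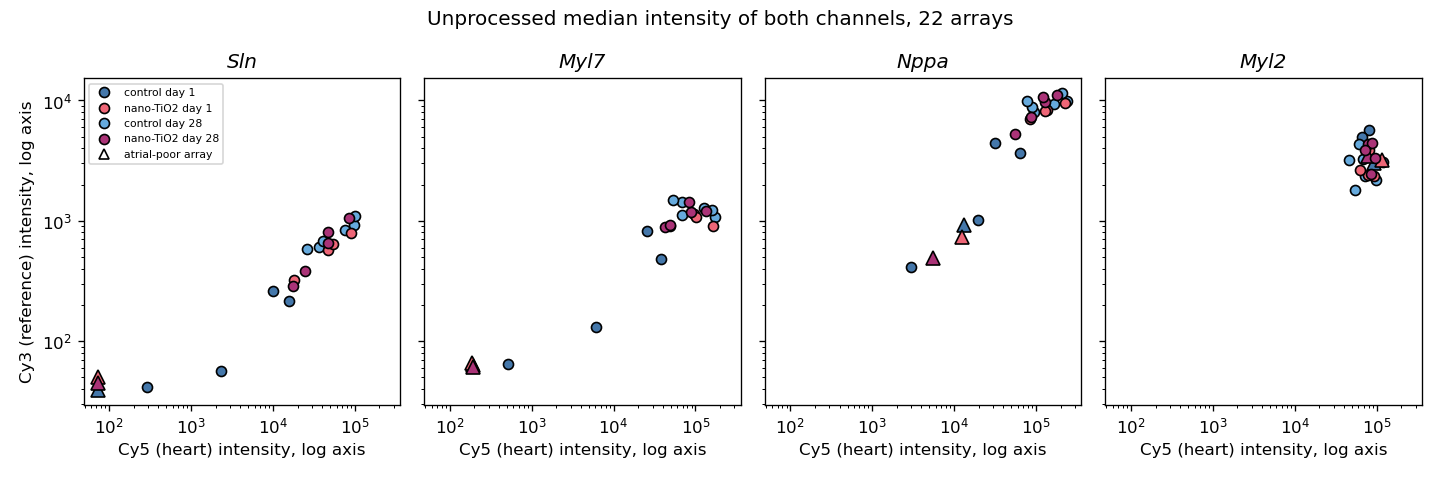
Unprocessed Cy3 (reference) intensity against Cy5 (heart) intensity of Sln, Myl7, Nppa and Myl2 on 22 arrays, both on log axes, with triangles for the atrial-poor arrays and colours for the 4 groups. For Sln, Myl7 and Nppa the triangles are low in both channels, while for Myl2 they lie among the circles.

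Nppb, the related B-type peptide that ventricles also make, stood at 6.37, 5.89 and 6.01, against -1.55, 5.75 and 6.65. The 3 arrays lay inside the range, and the difference was 0.60 ± 0.96 (SE). The lowest value, in nano-TiO2 day 28 replicate 4, came with a Cy3 intensity of 60088 where no other array exceeded 141. That array is part of the difference of 0.60, and in Cy5 alone Nppb differed by -0.03.

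Channels and transcription factors of atrial and nodal cells differed less. Of 13 channel genes 9 were measured and 6 were lower, with a median of -0.26. Gja5, the connexin of atrial muscle, conduction tissue and arteries, stood at 1.15, 1.39 and 1.03, against 1.42, 3.83 and 4.70. All 3 arrays were below all others, as for 0.599% of all genes. The difference was -1.96 ± 0.36 (SE), but the other probe of Gja5 gave -0.03. Cacna1h, a T-type calcium channel, differed by -0.81 and Kcnj3, a subunit of the acetylcholine-gated potassium channel, by -0.35. Kcna5 (-0.04) and Kcnk3 (0.13), potassium channels listed for their atrial roles, lay within the spread of the other arrays. Of the 6 transcription factors measured 4 were lower, with a median of -0.14, which was above 0 in 2 of 44 processing settings. Nr2f2, a factor that specifies atrial muscle, differed by -0.49 ± 0.14 (SE), and Tbx5 by -0.65 ± 0.34 (SE).

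Ventricular genes were slightly higher. Of 16 listed genes 13 were measured and 10 were higher, with a median of 0.27 and none past the threshold. Myl2 stood at 6.38, 6.16 and 6.23, against 5.59, 5.96 and 6.49, so the 3 arrays lay in the upper part of the range and differed by 0.19 ± 0.12 (SE). Irx4, a ventricular transcription factor, stood at 3.04, 2.95 and 2.71, against 1.59, 2.31 and 3.14, a difference of 0.40 ± 0.17 (SE). Myh7 differed by 0.35 ± 0.21, Pln, which encodes phospholamban, by 0.31 ± 0.14, and Kcnip2, a subunit of the transient outward potassium channel, by 0.34 ± 0.15 (SE). Hand2 (-0.19), Hey2 (-0.12) and Kcnd2 (-0.06) were the 3 members below 0. Myl3, the ventricular essential light chain, stood at 7.44 and 7.41 on the 2 atrial-poor arrays with a value, above the highest of the others (7.38).

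Genes of muscle contraction and energy supply, used by both chambers, followed the ventricular genes. Of 16 sarcomere genes 14 were higher (median 0.22), as were 9 of 11 measured genes of calcium handling (0.15), 14 of 15 of the respiratory chain (0.17) and 12 of 17 of fatty acid oxidation (0.11). None passed the threshold. Myoz2, a Z-disc protein, stood at 6.51, 6.55 and 6.34, against 5.28, 5.76 and 6.48, a difference of 0.53 ± 0.17 (SE). Ldhb, the heart form of lactate dehydrogenase, differed by 0.38 ± 0.12, and Jph2, which holds the calcium release sites to the membrane, by 0.46 ± 0.18 (SE). Ratios are relative within an array, so these small differences have no absolute zero.

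Among the genes that were higher, none passed the threshold. Romo1, Hint3, Mpc1 and Map3k5 were among those with the smallest p. Mpc1, a subunit of the carrier that takes pyruvate into mitochondria, stood at 3.66, 3.55 and 3.53, against 2.90, 3.23 and 3.47, a difference of 0.32 ± 0.07 (SE). For this gene, and for Romo1 (0.35) and Hint3 (0.42), all 3 arrays lay above all others, as for 0.346% of all genes. They were named for their small p, so nothing is read from that.

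**Figure D3:**
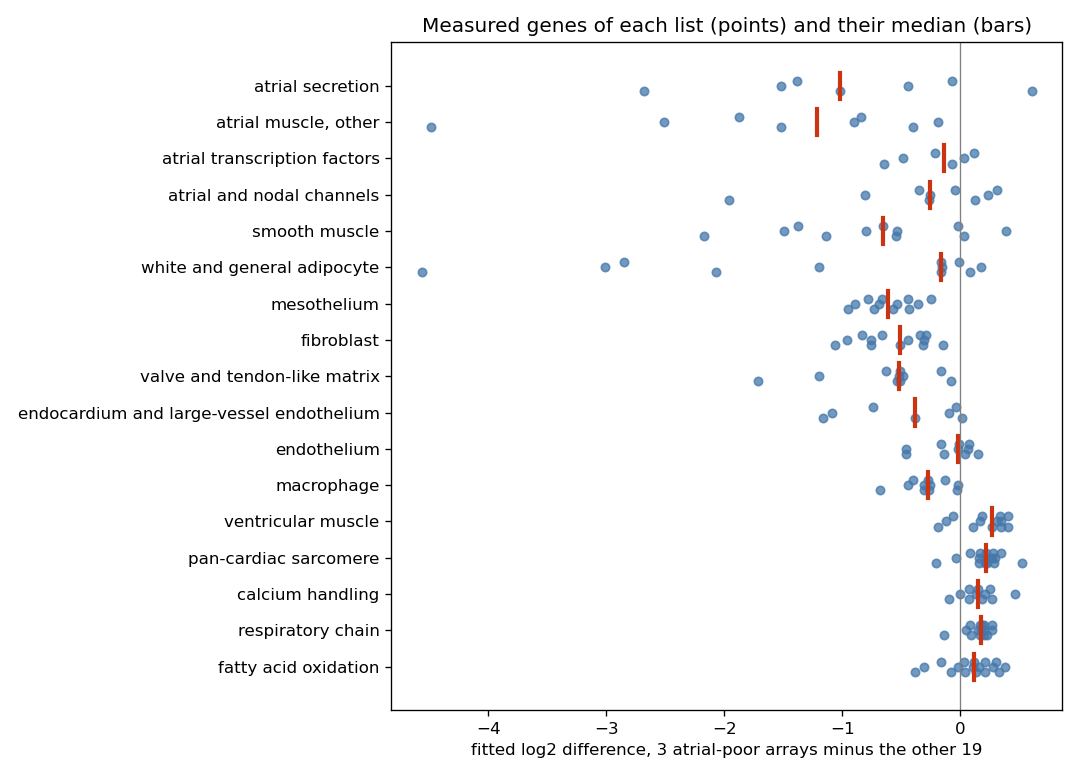
Fitted log2 difference, atrial-poor arrays minus the other 19, of each measured gene (points) and the median (bars) of 17 gene lists. Most points of the atrial, smooth muscle, mesothelium, fibroblast and valve lists lie below 0, and most points of the ventricular, sarcomere and respiratory chain lists above it.

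Smooth muscle genes were low on the atrial-poor arrays, but not there alone. Of 13 genes 11 were measured and 9 were lower, with a median of -0.65. Cnn1, the smooth muscle calponin, stood at -0.53, -0.25 and -0.33, against -0.54, 2.76 and 3.84, a difference of -2.17 ± 0.37 (SE). Control day 1 replicates 1, 3 and 4 (-0.54, -0.08 and -0.01) were about as low as the atrial-poor arrays, so the ranges overlap. Within slide 5 Cnn1 differed by -3.74 and within slide 4 by 0.28. Tagln, an actin-binding protein, differed by -1.37, Myh11, the smooth muscle myosin heavy chain, by -0.80 and Lmod1, an actin nucleator, by -1.14, whereas Cald1 (0.03) and Actg2 (0.39) were not lower.

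Fat cell genes differed widely among themselves. Of 12 white or general adipocyte genes 11 were measured and 9 were lower, but the median was only -0.16 while the mean was -1.27. Cfd, which encodes adipsin, a protease of the complement system secreted by fat cells, stood at 0.67, 0.93 and 0.63, against 0.37, 6.92 and 8.82. Its difference was -4.56 ± 0.89 (SE), and control day 1 replicates 1, 3 and 4 (0.37, 0.98 and 0.81) lay with the atrial-poor arrays. Adipoq, the hormone adiponectin, and Cidec, a lipid droplet protein, were well above background on 0 of the 3 and 16 of the 19 arrays, and each on 1 of the 4 other day 1 controls. Their Cy5 differences were -2.78 and -2.65. Genes of fat handling that heart muscle or endothelium also uses, Fabp4 (0.08), Pnpla2 (0.18) and Lipe (-0.16), differed little. Ucp1, the uncoupling protein of brown fat, was well above background on 0 of 3 and 13 of 19 arrays, and on 0 of the 4 other day 1 controls, with a Cy5 difference of -1.49. Mesothelial genes, which mark the outer surface of the heart, were lower for 12 of 12 measured members, with a median of -0.62. The mesothelial list mean was -1.40, -1.49 and -1.25 on the 3 arrays, against -1.79, -0.51 and 0.46 on the others, so here too others were as low. With the adipocyte list mean as a further covariate the mesothelial median came to -0.01.

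Connective tissue genes were low on the 3 arrays too. All 13 measured fibroblast genes were lower, with a median of -0.51. For 4 of them all 3 arrays lay below all 19, as for 0.599% of all genes, and since the arrays were chosen for low values nothing is read from that count. The fibroblast list mean was 0.63, 0.55 and 0.60 on the atrial-poor arrays, against 0.78, 1.25 and 1.75 on the others, with no overlap. For the same reason nothing is read from that lack of overlap. Lum, which encodes lumican, a proteoglycan that spaces collagen fibrils, stood at 4.62, 4.67 and 4.82, against 5.05, 5.67 and 6.19. It lay below all others, as did 0.599% of all genes, and differed by -0.83 ± 0.13 (SE), by -0.38 within slide 4 and by -1.07 within slide 5. The collagen genes Col1a2 and Col3a1 differed by -0.96 ± 0.22 and -1.06 ± 0.25 (SE).

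Valve and tendon-like matrix genes were lower for 10 of 10 measured members of 15 listed, with a median of -0.52. Postn, which encodes periostin, stood at 0.77, 0.73 and 0.62, against 1.15, 2.11 and 2.96, below all others, a difference of -1.20 ± 0.21 (SE). Comp, a cartilage and tendon matrix protein, stood at 0.83, 0.60 and 0.54, against 0.66, 2.84 and 3.79, with overlap, a difference of -1.71 ± 0.35 (SE). Mgp, an inhibitor of calcification in vessels and cartilage, stood at 3.50, 3.78 and 3.54, against 3.84, 4.97 and 5.45, below all others, a difference of -1.02 ± 0.17 (SE). Postn and Mgp were named from values of these same arrays. Nothing is read from their place below all others, which 0.599% of all genes shared. The valve list mean was 0.27, 0.20 and 0.27, against 0.34, 1.05 and 1.54, also without overlap, and again nothing is read from that. With the adipocyte list mean as a covariate the median was -0.38 for the fibroblast and -0.37 for the valve list.

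Endothelial genes were lower in part. Genes of the endocardium and large vessels were lower for 6 of 7 measured members, with a median of -0.38. Their mean was below all 19 on each of the 3 arrays, from which nothing is read, since the arrays were chosen for low values. Edn1 (-0.04), Nfatc1 (0.01) and Selp (-0.10) of that list lay near 0. Plvap, a protein of the diaphragms of fenestrated endothelium, stood at 0.88, 1.26 and 1.21, against 1.27, 2.65 and 3.15, a difference of -1.17 ± 0.23 (SE). Npr3, the clearance receptor for natriuretic peptides in the endocardium, stood at 0.39, 0.34 and 0.41, against 0.57, 1.93 and 2.57, a difference of -1.09 ± 0.25, and the brighter of its 2 other probes gave -0.26. For both, the 3 arrays lay below all others, as for 0.599% of all genes. The general endothelial list had a median of -0.01. Its members Eng and Tek (each -0.46) stood near the median of the large-vessel list, while Emcn (-0.16), Pecam1 (-0.14) and Cdh5 (0.07) lay nearer to 0. The lists were not tested against each other.

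Blood, immune and nerve genes were mostly lower, and T cell genes lay near 0. Of 5 measured T cell genes 4 were higher, but the median was 0.03 and the mean -0.02. Of these 5 genes, 3 were well above background on 0 of the 3 arrays. The 3 measured red cell genes were lower, with a median of -0.51. All 11 measured macrophage genes were lower, with a median of -0.27. For 2 of them all 3 arrays lay below all 19, as for 0.599% of all genes. These were Adgre1 (-0.44) and Csf1r (-0.40), which encode the F4/80 surface protein and the receptor for macrophage colony-stimulating factor. Since the arrays were chosen for low values, nothing is read from that count. Of 19 measured complement genes 16 were lower, with a median of -0.31, among them C3 (-0.82) and C2 (-0.72), beside Cfd, which is on the fat cell list as well. The red cell gene Hba-a1 had a ratio difference of -0.06 but -1.53 in Cy5 alone and -1.43 in Cy3 alone, much like Nppa. For Alas2, the enzyme that starts heme synthesis in red cells, the values were -0.51, -1.38 and -1.01. Schwann cell genes were lower for 5 of 6, with a median of -0.27. Of 17 genes of neurons and cardiac ganglia only 5 were measured, so the ganglia that lie on the atria could not be followed.

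Across the 22 arrays, after subtraction of group means, the genes most like the mean of Sln, Myl4 and Myl7 were Mybphl (r = 0.963), Stard10 (0.868), Fgf12 (0.843), Lum (0.837) and Slc7a7 (0.830). Next came Mgp (0.828), Dkk3 and Cnn1 (each 0.826), Gpx3 (0.823) and Cfd (0.819). These are correlations over 22 arrays that share a reference RNA, and are given as a description. Within the other 19 arrays the value for Mybphl was 0.901 and for Gpx3 0.711, while it was 0.403 for Lum and 0.427 for Cnn1. Among the genes most opposed were Tle4 (-0.734), Nit2 and Ndufc2 (each -0.730) and Romo1 (-0.717).

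**Figure D4:**
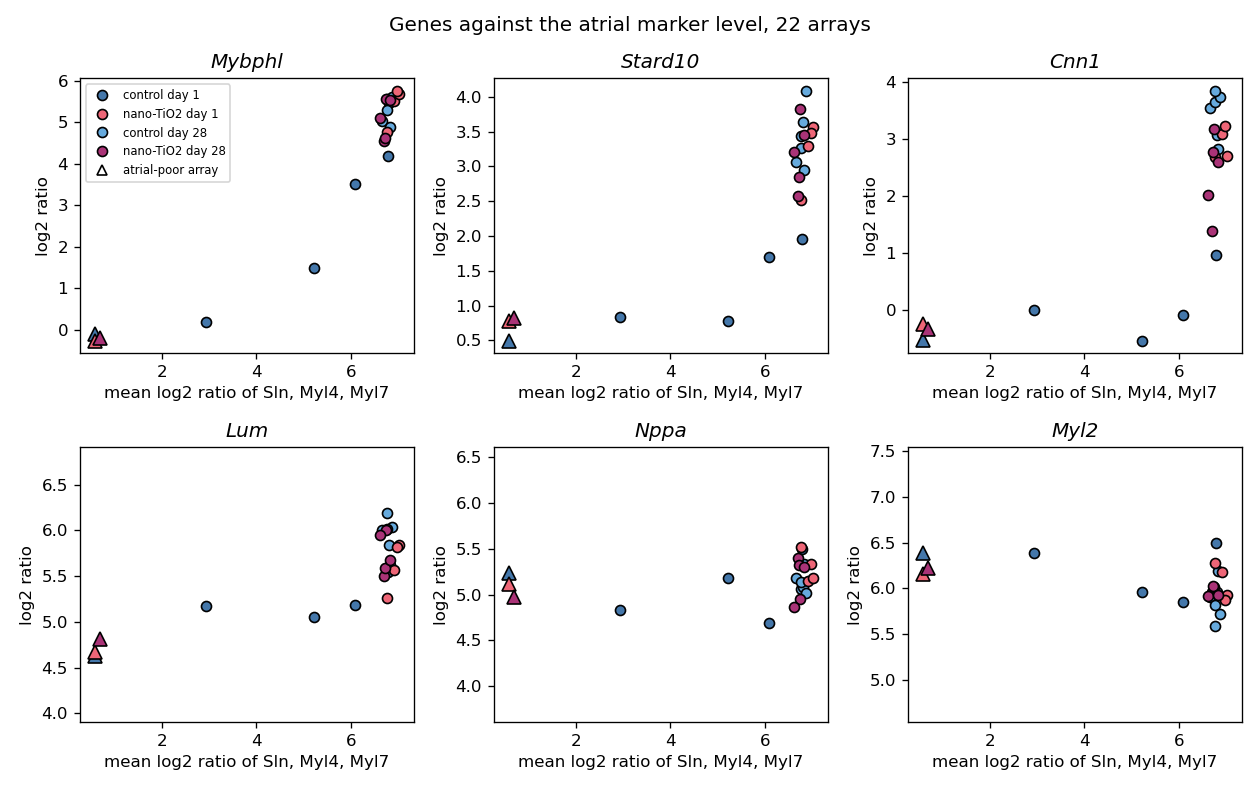
Log2 ratio of 6 genes against the mean log2 ratio of Sln, Myl4 and Myl7 on 22 arrays, with triangles for the atrial-poor arrays and colours for the groups. Mybphl climbs with the marker mean, Stard10 and Cnn1 are low on 3 day 1 controls that hold the markers, Lum is lowest in the triangles, and Nppa and Myl2 are level.

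Whether genes follow the atrial markers outside the 3 arrays was examined among the other 19. The markers that set the 3 arrays apart are the predictor here, so the slopes are given as a description. No value of the other genes was used in the choice. Among the 19 arrays the SD of the marker mean was 1.68 in control day 1 and at most 0.11 in each other group. The slopes therefore rest mostly on the day 1 controls. The slope was fitted per log2 unit of the mean of the 3 markers with group means as covariates. Of 16396 genes 1 passed (0.0061%), and 650 had an unadjusted p below 0.05, among them 468 with a slope above 0. The 1 gene was Mybphl, whose slope was 1.06 ± 0.13 (SE, 19 arrays; limma adjusted p = 0.000516). All adjusted p values of the slope took in the 3 markers, which make up the predictor and passed, so they can be too small. The values of Mybphl in single arrays follow. In the day 1 controls Mybphl stood at 1.48 in replicate 1, 3.52 in replicate 3, 0.19 in replicate 4 and 4.17 in replicate 5. Without control day 1 replicate 4, the array of the lowest marker level, the slope of Mybphl was 1.83 (limma adjusted p = 0.0185). It was 3.48 with the scanner log ratios and 0.70 in Cy5 alone, and 1.18 with slide as a fixed block (limma adjusted p = 0.0535). Its size thus moved widely with the processing, while its sign did not change in these settings.

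Other genes did not pass the threshold for the slope (limma adjusted p at least 0.992 for those with values here). Among them Gpx3, the secreted glutathione peroxidase, had a slope of 0.28 ± 0.07 (SE), Dkk3 one of 0.45 ± 0.21, Stard10 one of 0.32 ± 0.13 and Fgf12 one of 0.46 ± 0.19. The ventricular Myl2 had a slope of -0.04 ± 0.07 (SE). Of all genes 49.6% had a slope above 0. All 8 measured genes of the further atrial muscle list did, as did 7 of 7 of atrial secretion, 11 of 13 of fibroblasts, 10 of 11 of smooth muscle and 5 of 13 of ventricular muscle. The spread of the markers behind these slopes came mostly from the 4 day 1 controls.

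The arrays with intermediate marker levels were all day 1 controls. The marker mean of the arrays that remain after the 3 are left out was 5.25 ± 1.68 (SD, n = 4) in control day 1, 6.91 ± 0.11 (n = 4) in nano-TiO2 day 1, 6.78 ± 0.07 (n = 6) in control day 28 and 6.72 ± 0.08 (n = 5) in nano-TiO2 day 28. Control day 1 replicates 1, 3 and 4 also had smooth muscle list means of 0.17, 0.07 and -0.16, where the atrial-poor arrays had -0.06, 0.12 and -0.02 and the median of the 19 was 1.21. Their adipocyte list means were 1.58, 1.58 and 1.48, against 1.48, 1.61 and 1.48 on the atrial-poor arrays. Control day 1 replicate 5, with a marker mean of 6.78, had a smooth muscle list mean of 0.30 and an adipocyte list mean of 2.21. Its smooth muscle mean was also below the lowest in the other groups (0.48, in nano-TiO2 day 28). Low smooth muscle values were thus common to the day 1 controls, whatever their marker level. Control day 1 replicates 1, 3 and 4 were then left out as well, a choice made after seeing the values. In the comparison of the atrial-poor with the remaining arrays 182 genes then passed the threshold, 23 higher and 159 lower. The difference of Mybphl was then -5.21, of Cfd -5.81 and of Lum -0.93.

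The contrast of the study itself, nano-TiO2 against control, was also fitted. Without the 3 atrial-poor arrays, at day 1, 34 of 16396 genes passed (0.207%), 32 higher and 2 lower with nano-TiO2 (4 mice in each group), and 1633 had an unadjusted p below 0.05. Of the 34 genes, 14 had also passed in the comparison of the atrial-poor arrays with the other 19. Both fits use these 19 arrays and are not independent, so nothing is read from that overlap. Because the arrays left out were chosen by low measured values, the adjusted p values of this contrast can be too small and are descriptive. The 2 that were lower are 0.0122% of all genes. Among those that rose were the atrial genes Mybphl (3.09 ± 0.56), Dkk3 (2.94 ± 0.48), Fgf12 (2.73 ± 0.44), Stard10 (1.90 ± 0.31), Myl1 (1.48 ± 0.30) and Pam (1.24 ± 0.25; SE). The smooth muscle genes Cnn1 (2.83 ± 0.33), Itga8 (2.36 ± 0.36), Tagln (2.17 ± 0.38), Lmod1 (1.59 ± 0.22) and Myh11 (1.26 ± 0.23) rose, and so did Cfd (5.40 ± 0.84) and Gpx3 (1.23 ± 0.19). The 2 that fell were Ankrd37, a gene known for its response to low oxygen, by 0.58 on the log2 scale, and N4bp3 by 0.53. Of the lists, 4 of 8 measured genes of the further atrial muscle list passed, 2 of 7 of atrial secretion and 5 of 11 of smooth muscle, and 0 of 13 of ventricular muscle.

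Cnn1 stood at 2.92 ± 0.27 (SD, n = 4) with nano-TiO2 and 0.09 ± 0.63 (n = 4) in controls at day 1 (limma adjusted p = 0.000912). At day 28 it stood at 2.39 ± 0.70 (n = 5) and 3.44 ± 0.40 (n = 6). Cfd stood at 7.19 ± 0.84 against 1.80 ± 2.18 at day 1 (limma adjusted p = 0.00648), and at 6.86 ± 1.33 against 7.69 ± 0.92 at day 28. For both genes the mean of the day 1 controls stood apart, and the day 1 nano-TiO2 hearts were near the level of the day 28 hearts. The day 1 controls were not alike in Cfd: replicate 5 stood at 5.04 and the others at most at 0.98. Mybphl stood at 5.43 ± 0.45 against 2.34 ± 1.84 at day 1 (limma adjusted p = 0.0193), and at 5.07 ± 0.48 against 5.30 ± 0.29 at day 28. The marker means of the same groups are given further above, and their part in these differences was not tested. The fit with the marker mean as a covariate, given next, rests mostly on the day 1 controls. It therefore cannot separate marker level from group.

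With all 22 arrays 0 genes passed at day 1 by limma, with 1382 at an unadjusted p under 0.05, and the smallest adjusted p among the 34 genes was 0.286. With the marker mean as a covariate, added after the values were seen and fitted without the 3 arrays, 0 genes passed by limma, with 671 at an unadjusted p under 0.05. The smallest adjusted p among the 34 was then 0.181, for Cnn1, and all 34 kept their direction. The difference of Mybphl came to 1.33 ± 0.34 (SE) with that covariate, of Cfd to 4.09 ± 1.00, of Cnn1 to 2.53 ± 0.42 and of Ankrd37 to -0.61 ± 0.14. With slide as a fixed block 0 genes passed by limma, with 2838 at an unadjusted p under 0.05. The effect of nano-TiO2 at day 1 minus that at day 28, fitted without the atrial-poor arrays, passed for 83 genes (0.506%), all with the higher value at day 1.

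**Figure D5:**
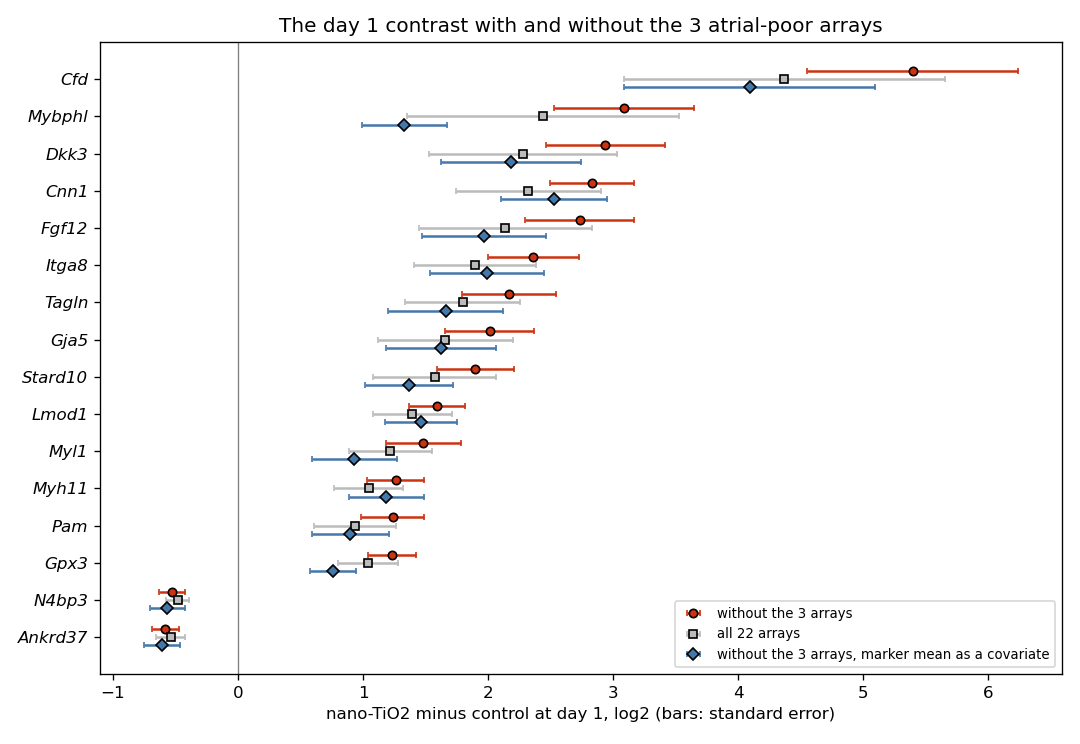
Difference of nano-TiO2 minus control at day 1 in log2, with its standard error, of 16 genes in 3 fits: without the atrial-poor arrays (circles), with all 22 arrays (squares), and without them with the marker mean as a covariate (diamonds). Every gene keeps its side of 0 in the 3 fits.

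At day 28, without the atrial-poor array, 0 of 16396 genes passed by limma (0%), and 709 had an unadjusted p below 0.05 (5 against 6 mice). With nano-TiO2, 165 of these had higher values and 544 lower ones. The marker means of these groups differed little, as given above. Among the genes with the smallest p, those on the higher side were Olfr1309 (0.33), Trappc13 (0.31), Plin3 (0.44), Suclg2 (0.32) and Ndufb5 (0.43), and those on the lower side Olfml2b (-0.47), Slc27a2 (-1.06), Inmt (-0.58) and Fmo2 (-0.65), all as log2 differences. Control day 28 replicates 1, 4 and 5 had the highest list means of lung epithelium or liver genes. Without them 0 genes passed by limma, with 371 at an unadjusted p under 0.05.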

How the data were processed

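Each mouse gave 1 Agilent 2-colour array of the whole genome, with heart RNA in Cy5 and reference RNA in Cy3 and no dye swap. Per the labels, RNA integrity numbers were 7 and above. The files deposited by the authors hold median intensities of the spots and their surroundings, not subtracted, and a log10 ratio of Cy5 over Cy3 made by Agilent Feature Extraction 10.7.3.1, per the file headers (the submitters' processing notes name 9.5.3.1). The value table of the series, also deposited by the authors, gives a log2 ratio per probe, with column medians of -0.04 to -0.02. Its values correlated at r from 0.992 to 0.998 with ratios made from the intensities, so scale and direction match, and the method is not given in the sources used here.

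Background was corrected with normexp (offset 50, fitted without spots of uneven background), arrays were normalized with loess, and control spots had weight 0. Flagged spots (0.418%) were left out and spots of 1 probe averaged. Of 41174 probes, 23374 matched 16535 RefSeq symbols. Probes with a Cy5 signal well above background on 3 or more arrays were kept (20476 probes), and the brightest kept probe in Cy5 stood for its gene. This left 16399 genes, the 3 markers included (10899 with a symbol). R 4.3.3 with limma 3.58.1 (lmFit, eBayes) and data.table (version 1.17.8) and Python 3.11.15 with matplotlib 3.10.9 were used. Models had the 4 group means, and the scripts were tested on simulated data. Benjamini-Hochberg adjustment covered all 16399 genes, and the 3 markers were left out of the counts afterwards. Only in the fit of the day 1 effect minus the day 28 effect were the markers left out before adjustment. The number of arrays limits the precision.

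The atrial-poor arrays, the gene lists (37) and the tests were chosen with earlier results of these data known. Named genes were the measured members of the atrial and ventricular lists, the 12 largest differences past the threshold (5 with the smallest p where fewer passed), up to 3 genes of each other list, the 5 smallest p of each direction in the treatment contrasts, and the 10 genes most like the marker mean. Other genes given with values are list members or called genes picked after their values were seen. Clones and predicted genes were not named. Some genes picked by this rule are not reported here. Alternatives were other background corrections and normalizations, each channel alone, the scanner log ratios, the authors' value table, other filters and probe summaries, other eBayes settings, array weights, slide or scan day as a block, other covariates, and leaving out arrays.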

Additional observations from a re-analysis of the deposited data

Results flagged for a closer look

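Within the 4 groups, 324 gene or list values were examined for a single array far from the others of its group, and 24 stood out. Chance flags about 1 in 20 groups. In 13 of the 24 the array is an atrial-poor one, which follows in large part from the choice of arrays and genes: 6 of the 13 are values of the defining genes, and the other 7 are of genes named from, or listed for, the comparison of the same arrays. Sln stood at 0.24 in nano-TiO2 day 1 replicate 1, where the other 4 lay between 7.43 and 7.59, and at 0.22 in nano-TiO2 day 28 replicate 1. Myl4 stood at -0.36 and -0.31 on the same arrays, Myl7 at 1.90 and 2.17, and Mybphl at -0.27 and -0.22. Cfd (0.93), Cnn1 (-0.25) and Mpc1 (3.55) stood out in nano-TiO2 day 1 replicate 1, Romo1 (1.53) in nano-TiO2 day 28 replicate 1 and Map3k5 (1.59) in control day 1 replicate 2.

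The other 11 concern arrays that hold atrial transcripts. In control day 1, replicate 5 was high in Cfd (5.04, the others at most 0.98) and in the adipocyte list mean (2.21), replicate 4 was low in Angpt1 (-0.20) and replicate 3 high in Kcnj3 (0.62). Tbx3 stood at 1.23 in control day 28 replicate 5. In nano-TiO2 day 1, Kcnk3 stood at 3.94 and the B cell list mean at -1.07 in replicate 4, Cacna2d2 at -1.19 in replicate 3, and the neutrophil list mean at 1.69 in replicate 2. In nano-TiO2 day 28, Nppb stood at -1.55 in replicate 4, with a Cy3 intensity of 60088, and Kcnn2 at 1.23 in replicate 2.

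The effect of nano-TiO2 differed between the days for 6 of the genes named for the treatment contrasts, by an interaction term fitted with limma without the atrial-poor arrays. Over all genes 83 of 16396 passed (0.506%), all 83 with the higher value at day 1, and 2036 had an unadjusted p under 0.05. The day 1 minus day 28 difference was 6.23 ± 1.11 (SE) for Cfd (limma adjusted p = 0.0178), 3.89 for Cnn1 (0.000473), 3.38 for Itga8 (0.00369), 2.23 for Lmod1 (0.00213), 1.54 for Fmo2 (0.0102) and 1.40 for Gpx3 (0.0188). The arrays left out were chosen by low measured values, so these adjusted p values can be too small and are descriptive. The day 1 controls of this fit include the arrays of intermediate marker level, and their part in the difference was not tested.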

How the results depend on the processing

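No paired analysis was possible because the labels give animal numbers and no replicate number shared between groups. The count of genes past the threshold moved widely, while list medians kept their sign in all 44 settings for most lists. Of the lists named the exceptions are the atrial transcription factors, above 0 in 2 settings, the adipocyte list, above 0 in 1 (0.34 with its own mean as a covariate), the general endothelial list, above 0 in 9, the liver list, not below 0 in 2, the B cell list, above 0 in 1 (0.68), and the T cell and lung epithelium lists, below 0 in 6 and 4 where the medians were 0.03 and 0.07. Against the main counts of 30 genes (atrial-poor against the other 19), 1 gene (slope) and 34 genes (day 1), in that order, the counts were 0, 0 and 0 with normexp fitted on all spots, 214, 79 and 184 with the scanner log ratios, 1, 11680 and 3 with median centring, and 0, 0 and 0 with slide as a fixed block. Median centring moved the median slope of all genes to 0.25 and the median day 1 difference to 0.14. Atrial-poor against the other 19 gave 47 genes with scaling between arrays, 381 with array weights, 1 with scan day as a block, 7 without group covariates, 1 with the adipocyte mean as a covariate and 182 without the 3 day 1 controls of low marker level. The slope gave 3 genes in Cy5 alone and 14 without group covariates. The day 1 contrast gave 60 genes with scaling, 57 with a filter of 11 arrays, 22 with trend and robust eBayes, 62 with array weights, 58 with scan day as a block, 161 with only the compared groups, and 0 with all 22 arrays, with the marker mean or with the mean of the other atrial muscle genes as a covariate. The day 28 contrast gave 0 in every setting run. The cause of these changes was not tested. Leaving out each array in turn gave 0 to 103 genes for the atrial-poor comparison (0 without nano-TiO2 day 1 replicate 1, 1 without nano-TiO2 day 28 replicate 1, 53 without nano-TiO2 day 1 replicate 5, 73 without control day 1 replicate 1, 94 without nano-TiO2 day 28 replicate 2, 103 without control day 1 replicate 2), and 1 for the slope throughout. It gave 8 to 102 for the day 1 contrast: 8 without control day 1 replicate 1 or nano-TiO2 day 1 replicate 4, 12, 15 and 20 without nano-TiO2 day 1 replicate 2, control day 1 replicate 4 and nano-TiO2 day 1 replicate 3, 22 without control day 1 replicate 3, 69 without control day 28 replicate 6 or nano-TiO2 day 1 replicate 5, and 70 and 102 without nano-TiO2 day 28 replicates 3 and 2. Single genes changed sign as follows. The slope of Clip4 (-0.22) was 0.058 with normexp fitted on all spots and 0.16 with median centring, which also gave 0.091 for Cttnbp2nl, 0.11 for Zfp763 and 0.21 for Acap3. Over the arrays left out in turn the slopes ran from -0.13 to 0.44 for Cd93, from -0.012 to 0.23 for Zbtb44 and from -0.21 to 0.080 for Acap3, the changed sign in each case without control day 1 replicate 4. The day 1 difference of Gpx3 was -0.25 in the scanner log ratios.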
